A study of Mus musculus with 12 samples.

Results

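Brain tumours of mice labelled with the tumour genotype IDH1_R132H were compared with normal mouse brain, 3 libraries against 3, which is 6 of the 12 libraries of the study. The members were taken from the labels, as the libraries with that tumour genotype and the libraries whose tissue is normal brain, and every gene that passed a filter on low counts was tested, 16381 of the 49671 genes in the count table. Total RNA came from formalin-fixed, paraffin-embedded tissue in every library. The tumours arose in mice of the N::TVA genotype that carry floxed alleles, Cdkn2a and Atrx among them, and the normal brains came from mice of that line labelled TVA negative, so the floxed alleles are shared by both groups. TVA is the avian receptor through which RCAS viruses enter mouse cells, and the labels name neither the promoter that drives it nor the cells infected. They do not say whether the IDH1_R132H tumours also received PDGFA, which part of the brain was taken, whether each library is a separate animal, or any age, sex, batch or pairing. The other 6 libraries are 3 tumours labelled PDGFA and 3 labelled IDH1WT, and they are used below only where the IDH1_R132H tumours are set against them.

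Isocitrate dehydrogenase 1 (IDH1) makes 2-oxoglutarate from isocitrate in the cytosol. The mutant enzyme, common in human diffuse glioma, turns 2-oxoglutarate into 2-hydroxyglutarate, which inhibits enzymes that use 2-oxoglutarate, among them the TET enzymes of DNA demethylation. Gliomas started through RCAS and TVA often carry features of oligodendrocyte precursors, the dividing glial cells that carry the receptor PDGFRA and the factors OLIG2 and SOX10 and that give rise to myelinating oligodendrocytes.

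The total count was between 6507923 and 10019818 in the IDH1_R132H tumours and between 8374528 and 11731050 in the normal brains. Tumour 3 stood apart from the other libraries. Genes of ribosomal RNA and its relatives took 53.4% of its counts, against 10.2% to 15.6% in the other 5 libraries, which left it the smallest effective depth. Expression varied more among the tumours, with a biological coefficient of variation of 24.9%, than among the normal brains, where it was 13.7% (n = 3 each). Normal brains 1 and 2 were close to each other: the chi-square statistic of their counts averaged 2.63 per gene, where counting noise alone gives about 1 and either of them with normal brain 3 gave 30.9 or more. Among the tumours the statistic was 12.8 for tumours 1 and 2. Tumour 3 gave 453 with tumour 1 and 585 with tumour 2. These averages include the genes of ribosomal RNA and its relatives. Gm42418, counted among them, took 35.6% of the counts of tumour 3, against 0.581% and 0.653% in tumours 1 and 2. The averages with tumour 3 therefore need not describe a typical gene. The first principal component, with 66.9% of the variance of the 2000 most variable genes, put the tumours between -43.7 and -28.3 and the normal brains between 35.5 and 39.5. The second component, with 19%, put tumour 3 at -37.2 and the other tumours at 15.2 and 25.5. P-values measure the spread between these libraries, which may in part be technical. Levels are given as CPM (a gene's counts relative to the total of its library, in edgeR's usual unit), scaled by edgeR's TMM factors over the 6 libraries, and fold changes are log2 values with their standard error (SE).

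The genes of the tumour and mouse genotypes were read first. Idh1 (chr1:65158616-65186500, GRCm38) was at 51.1, 48.7 and 66.7 CPM in the IDH1_R132H tumours, against 20.9, 22.1 and 24.9 CPM in the normal brains. Its level was higher in each tumour than in any normal brain, by 1.29 on the log2 scale (SE 0.16, adjusted p = 0.00103, edgeR). Reads were counted over the mouse gene, so a transcript delivered by a virus was not told apart from it. Pdgfa, the ligand of PDGFRA, was at 40.3, 45.8 and 50.5 CPM in the tumours, against 28.3, 26.8 and 25.9 CPM in the normal brains (log2 fold change 0.75, SE 0.13, adjusted p = 0.00503, edgeR), but it was not called in the fit of all 12 libraries (adjusted p = 0.131, edgeR) or with limma on the deposited log2 values, where the change was 0.14 (adjusted p = 0.349). Idh2, the mitochondrial enzyme, was not called, at 14.9, 20.6 and 21.8 CPM in tumours against 14.1, 15.7 and 18.96 CPM in normal brains. Atrx, a chromatin remodeller lost in many human IDH1-mutant astrocytomas, was at 243, 251 and 249 CPM in the tumours, against 305, 311 and 241 CPM in the normal brains, and was not called (adjusted p = 0.338, edgeR). Cdkn2a, which encodes cell cycle inhibitors, had 14, 1 and 5 counts in the tumours and 1 count in each normal brain, too few for a test. Whole-gene counts in bulk tissue do not show whether a floxed exon was removed, so these values check the labels only in part.

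Across all genes, 3319 of the 16381 tested (20.3%) differed between IDH1_R132H tumours and normal brain at an adjusted p under 0.05. Of these, 2025 were higher in the tumours (12.4% of the genes tested) and 1294 were lower (7.9%). A change of at least 2-fold was seen for 1175 of the higher and 450 of the lower genes. Groups that did not overlap were seen for 6395 genes (39%), and 3297 of the called genes were among them. The median log2 fold change over all genes tested was 0.009, so the calls are relative to a typical gene that the scaling sets to no change. The number of calls depended on single libraries: it was 5428 without tumour 3, with higher and lower calls nearly even (51.7% higher, against 61% in all libraries), 1791 without tumour 2, 1547 without normal brain 1 and 1617 without normal brain 2. Without tumour 3, 16.4% of the genes tested were higher and 15.3% lower; without any one of the other 5 libraries 6.48% to 11.2% were higher and 2.65% to 6.13% lower, and in the fit of all 12 libraries 4.83% and 2.35%. With the counts of normal brains 1 and 2 summed into 1 sample it was 1687, and 1644 of those genes were also among the 3319. The share of tested genes called higher ran from 10.1% on chromosome 7 to 15.2% on chromosome 18 among the chromosomes of the nucleus. None of the 19 tested genes of the mitochondrial genome was called, with 0.13, -0.3 and 1.32 as the median log2 difference from the normal brains in tumours 1, 2 and 3.

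**Figure D1:**
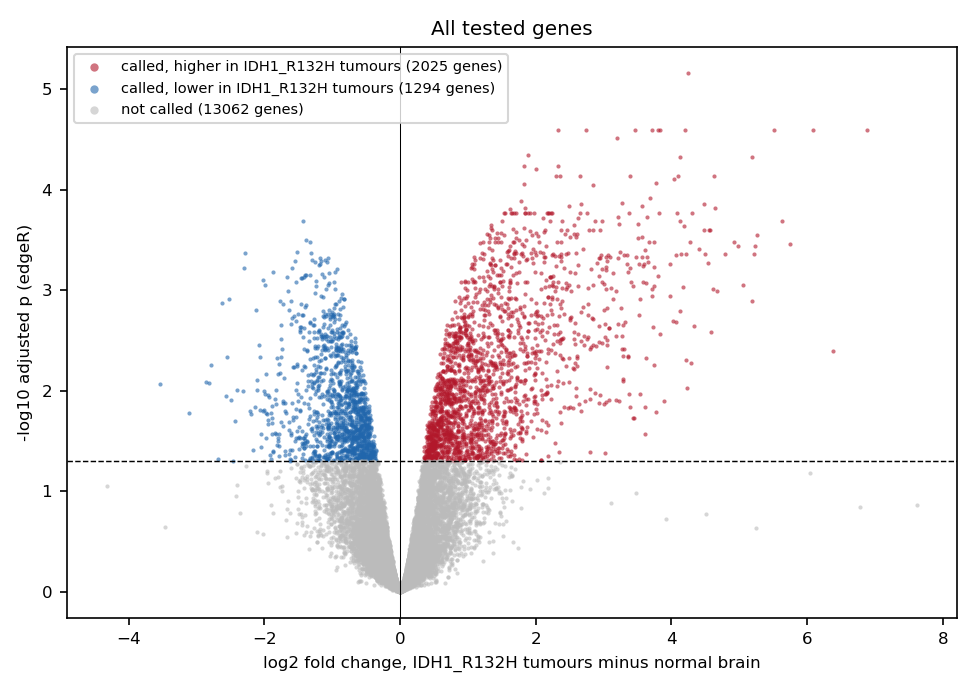
Each point is a tested gene, with the log2 fold change (IDH1_R132H tumours minus normal brain) on the x axis and -log10 of the edgeR adjusted p on the y axis; the dashed line marks an adjusted p of 0.05. The 2025 genes called higher reach larger changes than the 1294 called lower.

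Genes of cell division were among the largest changes. The rule for named genes took, in each direction, the 15 called genes that changed most among those with a mean log2 CPM of at least 3. Mki67, which encodes the proliferation antigen Ki-67, was at 54.2, 88.7 and 123.5 CPM in the IDH1_R132H tumours, against 0.749, 3.05 and 1.53 CPM in the normal brains, a log2 fold change of 5.63 (SE 0.45, adjusted p = 0.000205, edgeR). Top2a, the topoisomerase that untangles chromosomes before mitosis, was at 45.1, 64.9 and 80.8 CPM in the tumours, against 1.18, 2.04 and 1.94 CPM in the normal brains (log2 fold change 5.18, SE 0.29). The lowest tumour stood far above the highest normal brain for both genes, and tumour 3 was the highest tumour. Cenpf, a kinetochore protein, had a log2 fold change of 4.63 (SE 0.29). Ccnd1, the cyclin D1 gene that opens the path into the cell cycle, was at 479, 421 and 570 CPM in the tumours, against 26.6, 32.7 and 47.7 CPM in the normal brains (log2 fold change 3.78, SE 0.24).

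Most members of the 4 cell cycle and repair lists were called higher. Of 25 tested mitosis genes, 24 rose and none fell, with a median log2 fold change of 3.58, against 0.01 over all genes. Bub1b, a spindle checkpoint kinase, was the 1 member not called (log2 fold change 1.40). Of 25 DNA replication genes, 22 rose, with a median of 1.73. Among these, Uhrf1, which brings the DNA methyltransferase to newly copied DNA, was at 10.4, 12.7 and 17.3 CPM in the tumours, against 0.428, 0.814 and 0.726 CPM in the normal brains. Mcm6, a subunit of the replicative helicase, was at 24.6, 14.6 and 19.8 CPM in the tumours, against 1.18, 1.93 and 1.53 CPM in the normal brains (log2 fold change 3.65, SE 0.29, adjusted p = 0.000186, edgeR). Of 21 genes of G1 cyclins and E2F factors, 14 rose, with a median of 1.67. They include Ccnd2 (log2 fold change 2.70), Ccnd3 (1.32) and their partner kinase Cdk4 (1.67). Of 19 genes of homologous recombination and Fanconi repair, 14 rose, with a median of 1.46, led by Clspn (3.66), a mediator of the replication checkpoint, and Brip1 (2.98), a helicase partner of BRCA1. The mitosis score of a library, the mean log2 CPM of the list less its mean in the normal brains, was 2.78, 3.32 and 3.82 in tumours 1, 2 and 3, against -0.33 to 0.26 in the normal brains. Leaving out any single library kept the higher calls of the mitosis list between 21 and 24 and of the replication list between 17 and 22. For the repair list they were between 9 and 16, with 9 when normal brain 1 was left out, and 7 in the fit of all 12 libraries.

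Promoters are shown for genes of lists with many higher calls. Each sequence is the 250 bases before the first listed start in RefSeq on GRCm38.p6, and each gene is the member of its list with the smallest p whose window holds the motif, so it was chosen with its values known. Capitals mark matches on either strand to the CHR element (TTTGAA), the CCAAT box (CCAAT), E2F sites (TTTCCCGC, TTTCGCGC, TTTGCCGC or TTTGGCGC) and, in the interferon gene Gbp3, the core of the interferon-stimulated response element, ISRE (GAAANNGAA). The motif used to choose the gene was CHR for Top2a, E2F for Mcm6 and the ISRE core for Gbp3. Top2a lies at chr11:99024190-99024439 and Mcm6 at chr1:128359706-128359955, both read on the minus strand, and Gbp3 at chr3:142559794-142560043 on the plus strand.
Top2a: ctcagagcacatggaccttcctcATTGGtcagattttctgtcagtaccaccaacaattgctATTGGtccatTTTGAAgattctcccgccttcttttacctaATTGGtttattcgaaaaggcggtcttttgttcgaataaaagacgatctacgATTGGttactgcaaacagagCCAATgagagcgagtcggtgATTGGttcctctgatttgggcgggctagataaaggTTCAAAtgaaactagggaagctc
Mcm6: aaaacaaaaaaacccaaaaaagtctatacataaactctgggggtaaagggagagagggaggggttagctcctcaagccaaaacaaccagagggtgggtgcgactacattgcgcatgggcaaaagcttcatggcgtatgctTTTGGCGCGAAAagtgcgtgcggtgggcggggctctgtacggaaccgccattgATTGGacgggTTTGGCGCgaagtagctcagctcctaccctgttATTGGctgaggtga
Gbp3: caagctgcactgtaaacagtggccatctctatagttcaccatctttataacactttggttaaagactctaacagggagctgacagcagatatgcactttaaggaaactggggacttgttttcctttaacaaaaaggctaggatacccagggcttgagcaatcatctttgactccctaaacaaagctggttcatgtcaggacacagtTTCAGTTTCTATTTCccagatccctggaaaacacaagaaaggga
The Top2a window holds 6 CCAAT boxes and 2 CHR elements. The Mcm6 window holds 3 E2F matches, a pair of which overlap, and 2 CCAAT boxes. The Gbp3 window holds 2 overlapping ISRE cores close to the start. A CCAAT box was found in 17 of the 21 mitosis genes with a promoter in the table (81%) and in 14 of 20 replication genes (70%), against 35.8% of the tested genes with a promoter and 34.5% of all promoters in the table. The share was as high in the genes of cholesterol and fatty acid synthesis, at 13 of 16 (81.2%). CHR elements were in 28.6% of the mitosis genes, against 10.2% of tested genes and 16.3% of all promoters. An E2F match was in 30% of the replication genes, against 3.3% of tested genes and 1.91% of all promoters. The same match was in 4.28% of all genes called higher and 1.79% of those called lower. These are matches of letters, not measured sites of binding.

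Oligodendrocyte precursor genes were the other group at the head of the list, and all 18 of them rose, with a median log2 fold change of 3.43. Pdgfra (chr5:75152292-75198215), the receptor that drives division of these precursors, was at 1294, 1460 and 607 CPM in the IDH1_R132H tumours, against 43.5, 46.2 and 45.2 CPM in the normal brains (log2 fold change 4.64, SE 0.33, adjusted p = 0.000152, edgeR). Cspg4, the NG2 proteoglycan of their surface, was at 464, 560 and 236 CPM in the tumours, against 19.3, 18.6 and 18.6 CPM in the normal brains. Tumour 3 was the lowest tumour for both, yet far above every normal brain. Olig2, which sets the lineage, was at 127, 175 and 122 CPM in the tumours, against 11.9, 8.95 and 9.60 CPM in the normal brains (log2 fold change 3.80, SE 0.19). Sox10, a lineage factor that stays on in mature oligodendrocytes, was at 126, 176 and 153 CPM in the tumours, against 15.4, 13.2 and 12.7 CPM in the normal brains. The 2 factors had little spread between tumours. Gpr17, a receptor of precursors that are about to differentiate, varied more, at 555, 686 and 96.1 CPM in the tumours against 23.8, 20.7 and 23.8 CPM in the normal brains (log2 fold change 4.29, SE 0.68, adjusted p = 0.00527, edgeR). Matn4, a matrix protein of the precursors, varied in the same way, at 120, 121 and 18.6 CPM in the tumours against 5.57, 5.90 and 2.66 CPM in the normal brains. The summed level of the 18 genes was 8100, 9170 and 4280 CPM in the tumours, against 975, 1010 and 956 CPM in the normal brains. In bulk tissue, more cells of a type and more RNA per cell cannot be told apart, here and in every list below. At least 17 of the 18 were called when any single library was left out.

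Several of the 15 largest rises lie outside these lists. Mmp15, a membrane-bound matrix metalloprotease, had the smallest adjusted p of all genes (6.93e-06, edgeR), at 323, 267 and 297 CPM in the tumours against 15.7, 14.8 and 16.1 CPM in the normal brains. Sema3d, a secreted semaphorin, was at 143, 145 and 97.6 CPM in the tumours, against 6.10, 7.12 and 7.67 CPM in the normal brains. Fabp7, the lipid-binding protein of radial glia, was at 142, 148 and 86.2 CPM in the tumours, against 5.57, 6.61 and 17.7 CPM in the normal brains. The rest of the 15 were Slc22a3 (log2 fold change 3.83), an organic cation transporter, the metalloprotease gene Adam12 (3.71), and Emid1 (3.72). Of the 15, 13 were called in each of the 14 alternative analyses and all 15 in at least 13 of them.

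**Figure D2:**
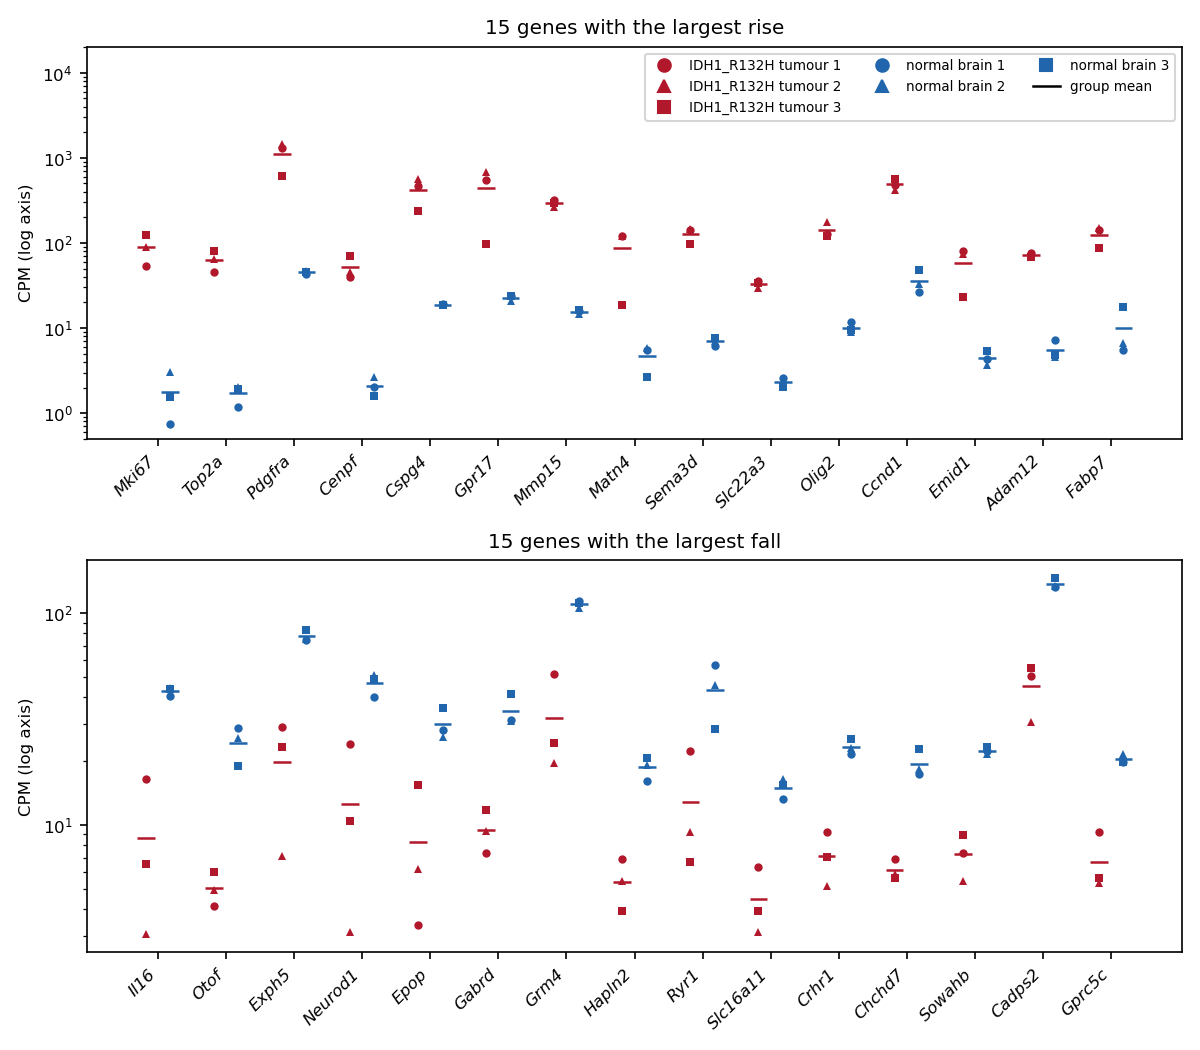
CPM on a log axis of the 15 genes with the largest rise (top) and the largest fall (bottom), with IDH1_R132H tumours to the left of normal brains for each gene; markers are single libraries and bars are group means. The groups do not overlap for any of the genes, and Gpr17 and Matn4 are lowest among the tumours in tumour 3.

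Among 29 regulators of neural progenitors, 20 rose and 2 fell, with a median log2 fold change of 1.10. Dll3, an atypical Notch ligand, was at 37.6, 48.3 and 32.8 CPM in the IDH1_R132H tumours, against 0.749, 0.814 and 0.968 CPM in the normal brains (log2 fold change 5.52, SE 0.24, adjusted p = 2.56e-05, edgeR). It was below the level needed for the 15 largest. The SOX factors Sox4, Sox6 and Sox2 rose by 2.33, 2.61 and 1.40 on the log2 scale. Pax6, a factor of radial glia and of cerebellar granule cells (log2 fold change -0.94), and Lin28b, an RNA-binding protein of early progenitors (-0.90), were the 2 that fell. Leaving out any single library gave 15 to 20 higher calls, and the fit of all 12 libraries gave 11.

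Genes induced by MAPK signalling, which PDGFRA feeds, rose in 10 of 16 cases and fell in 1, with a median of 0.81. Spry4, an inhibitor of receptor tyrosine kinase signalling, was at 135, 116 and 112 CPM in the tumours, against 18.8, 19.03 and 16.1 CPM in the normal brains (log2 fold change 2.75, SE 0.13). Etv4, a transcription factor downstream of ERK, rose by 2.85 and Spry1 by 2.95. Dusp5, an ERK phosphatase, was the member that fell (log2 fold change -0.70), and Dusp6, of the same family, rose by 1.22. Egfr, a receptor often amplified in human glioblastoma, was at 22.9, 21.4 and 24.8 CPM in the tumours, against 27.1, 28.1 and 20.7 CPM in the normal brains, and was not called (adjusted p = 0.6, edgeR). Nf1, a brake on RAS, was not called either (log2 fold change 0.31, adjusted p = 0.14, edgeR).

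Of 16 tested p53 target genes, 5 rose and none fell, with a median of 0.53. Eda2r, a receptor of the TNF receptor family, was at 22.8, 16.7 and 23.5 CPM in the tumours, against 1.07, 1.53 and 1.05 CPM in the normal brains (log2 fold change 4.10, SE 0.25). Cdkn1a, the p21 inhibitor of cyclin-dependent kinases, was at 25.2, 35.0 and 82.7 CPM in the tumours, against 4.82, 5.80 and 8.88 CPM in the normal brains, with tumour 3 the highest. Trp53inp1, Sesn2 and Pmaip1 were the other called members. Mdm2, the ubiquitin ligase that degrades p53, had a log2 fold change of 0.23 and was not called. Trp53 itself was at 13.7, 14.3 and 26.6 CPM in the tumours, against 8.35, 9.46 and 7.59 CPM in the normal brains (log2 fold change 1.09, adjusted p = 0.0247, edgeR), and its call was lost when any of the normal brains was left out.

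Genes around the IDH reaction moved little as a list. Of 24 genes of isocitrate dehydrogenases and the TCA cycle, 3 rose and 1 fell, with a median of -0.01. Beside Idh1, these were Me1, the cytosolic malic enzyme that yields NADPH, at 63.7, 64.9 and 62.0 CPM in the IDH1_R132H tumours against 24.0, 26.4 and 24.7 CPM in the normal brains (log2 fold change 1.34, SE 0.11), and Aco1, the cytosolic aconitase that makes isocitrate (0.74). Pcx, the mitochondrial enzyme that makes oxaloacetate from pyruvate, fell by 0.77. D2hgdh, a dehydrogenase that removes 2-hydroxyglutarate, had a log2 fold change of -0.42 and was not called. Of 22 glutamate and branched-chain amino acid enzymes, 3 rose and 2 fell. Gpt2, the mitochondrial alanine aminotransferase, was at 181, 188 and 116 CPM in the tumours, against 54.5, 46.5 and 47.3 CPM in the normal brains (log2 fold change 1.71, SE 0.19). Gls2, the p53-linked glutaminase, fell by 1.13. The counts of higher calls in both lists were near the share over all genes (12.4%). Without tumour 3 the lower calls of these lists were 6 and 6, in a fit where 15.3% of all genes were lower. None of 24 mitochondrial respiration genes was called, at a median of -0.18.

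Of 24 chromatin and Polycomb genes, 6 rose and 2 fell, against 12.4% and 7.9% of all genes. The median of the list was 0.28. Tet1, one of the dioxygenases that 2-hydroxyglutarate inhibits, was at 89.3, 87.0 and 71.7 CPM in the tumours, against 48.6, 47.5 and 34.5 CPM in the normal brains (log2 fold change 0.93, SE 0.16). Tet2 and Tet3, of the same family, had log2 fold changes of 0.03 and 0.04 and were not called. Dnmt1, the maintenance DNA methyltransferase, rose by 0.66, and Hells, a remodeller needed for DNA methylation, by 1.38. Cbx7, a Polycomb subunit, was at 17.5, 20.7 and 22.5 CPM in the tumours, against 42.3, 39.8 and 39.7 CPM in the normal brains (log2 fold change -1.01, SE 0.14), and Ezh1, the Polycomb methyltransferase of resting cells, fell by 0.68. Leaving out any single library gave 3 to 9 higher calls in this list.

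Lipid and hypoxia genes gave smaller shifts. Of 24 genes of cholesterol and fatty acid synthesis, 10 rose and none fell, with a median of 0.47. Sqle, the squalene epoxidase of cholesterol synthesis, was at 49.7, 48.0 and 74.3 CPM in the tumours, against 34.8, 33.1 and 30.7 CPM in the normal brains (log2 fold change 0.80, SE 0.18). The higher calls of the list were 1, 2 and 2 without normal brain 1, 2 and 3. In those fits 6.48%, 6.56% and 8.5% of all genes were higher. Without tumour 2 the list had 6 higher calls, and 7.46% of all genes were higher. Of 22 hypoxia and glycolysis genes, 5 rose and 3 fell, against 12.4% and 7.9% of all genes. Vegfa, which draws in vessels, was at 75.0, 125 and 166 CPM in the tumours, against 46.9, 46.4 and 45.1 CPM in the normal brains, and Adm, the vessel-relaxing peptide adrenomedullin, rose by 3.28. Ndrg1, a stress-induced gene that is also high in oligodendrocytes, fell by 0.89. The higher calls of this list were 3 without normal brain 1, and the lower calls 5 without tumour 3 and 1 without normal brain 2. Of 26 cytoplasmic ribosomal protein genes, 3 were called, all higher, a share near the 12.4% over all genes, and none when tumour 2, normal brain 1 or normal brain 2 was left out.

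Antigen presentation genes rose in 11 of 15 tested cases and fell in none, with a median log2 fold change of 1.64. B2m, the light chain of MHC class I, was at 90.5, 79.5 and 74.1 CPM in the IDH1_R132H tumours, against 18.5, 27.4 and 30.5 CPM in the normal brains (log2 fold change 1.67, SE 0.19, adjusted p = 0.000715, edgeR). Psmb8, a subunit of the immunoproteasome, was at 7.52, 6.18 and 5.03 CPM in the tumours, against 0.964, 1.12 and 1.29 CPM in the normal brains. The class I heavy chains H2-K1 and H2-D1 rose by 1.85 and 1.61, although near-identical copies make their counts uncertain. The list score was 1.6, 1.3 and 1.03 in tumours 1, 2 and 3, against -0.22 to 0.18 in the normal brains, and 9 to 12 members were called when any single library was left out. Of 16 tested interferon response genes, 8 rose and 1 fell, with a median of 1.10. Ifit2, an antiviral protein that binds RNA, was at 30.3, 23.8 and 24.8 CPM in the tumours, against 8.14, 9.77 and 8.55 CPM in the normal brains. Gbp3, the guanylate-binding protein whose promoter is printed above, was at 8.30, 7.12 and 6.15 CPM in the tumours, against 2.14, 2.44 and 1.78 CPM in the normal brains. Stat2, part of the factor that drives the response, was the member that fell (log2 fold change -0.63). An ISRE core was in 8 of 14 interferon genes with a promoter (57.1%), against 6.08% of tested genes and 7.16% of all promoters. The higher calls of the interferon list were 3 to 13 when any single library was left out, with 3 without tumour 2 or normal brain 2 and 13 without tumour 3.

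Microglia and macrophage genes moved beside them, with 9 of 19 higher and none lower, at a median of 1.05. Lyz2, the lysozyme of macrophages, was at 20.6, 32.9 and 20.5 CPM in the tumours, against 2.57, 3.56 and 6.62 CPM in the normal brains (log2 fold change 2.52, SE 0.35). The complement gene C1qb was at 19.8, 34.4 and 37.6 CPM in the tumours, against 7.07, 7.22 and 11.5 CPM in the normal brains. P2ry12 and Tmem119, markers of resting microglia, had log2 fold changes of 0.14 and 0.66 and were not called. The summed level of the 19 tested genes was 278, 513 and 489 CPM in the tumours, against 152, 178 and 296 CPM in the normal brains. The count was 3 without normal brain 1, 4 without normal brain 2, 5 without tumour 2 and 0 in the fit of all 12 libraries. T cell genes were near the limit of detection: 10 of 12, among them Cd3e and Cd8a, were below the filter, and the 2 tested genes, Cd4 and Lck, summed to 2.20, 3.32 and 5.77 CPM in the tumours, against 4.92, 4.48 and 2.5 CPM in the normal brains. How far microglia or macrophages account for the antigen presentation and interferon values was not tested.

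Vessel and matrix genes were higher as well. Of 25 genes of collagens, laminins and matrix, 15 rose and none fell, with a median of 0.98. Col4a1, a chain of basement membrane collagen, was at 180, 263 and 246 CPM in the IDH1_R132H tumours, against 48.4, 54.7 and 57.0 CPM in the normal brains (log2 fold change 2.10, SE 0.17). Lama4, a laminin chain of vessel walls, was at 57.9, 53.4 and 46.4 CPM in the tumours, against 9.10, 12.3 and 12.02 CPM in the normal brains. The fibrillar collagen genes Col1a1, Col1a2 and Col3a1 were not called. Of 16 endothelial genes, 6 rose and 1 fell, with a median of 0.71. Angpt2, a growth factor of sprouting vessels, was at 10.8, 9.88 and 16.0 CPM in the tumours, against 0.535, 1.22 and 1.13 CPM in the normal brains, and Kdr, the main VEGF receptor, rose by 1.29. Slco1a4, a transporter of the blood-brain barrier, was the endothelial gene that fell (-0.55). Over the alternatives the endothelial list had 4 to 10 higher and 0 to 3 lower calls. Of 11 pericyte and smooth muscle genes, 5 rose, among them Rgs5 (0.95) and Abcc9 (1.57), although Cspg4 on this list is also a precursor gene; 3 were called without tumour 2, normal brain 1 or normal brain 2. In the fit of all 12 libraries the higher calls were 9 for the matrix list and 2 for the pericyte list.

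**Figure D3:**
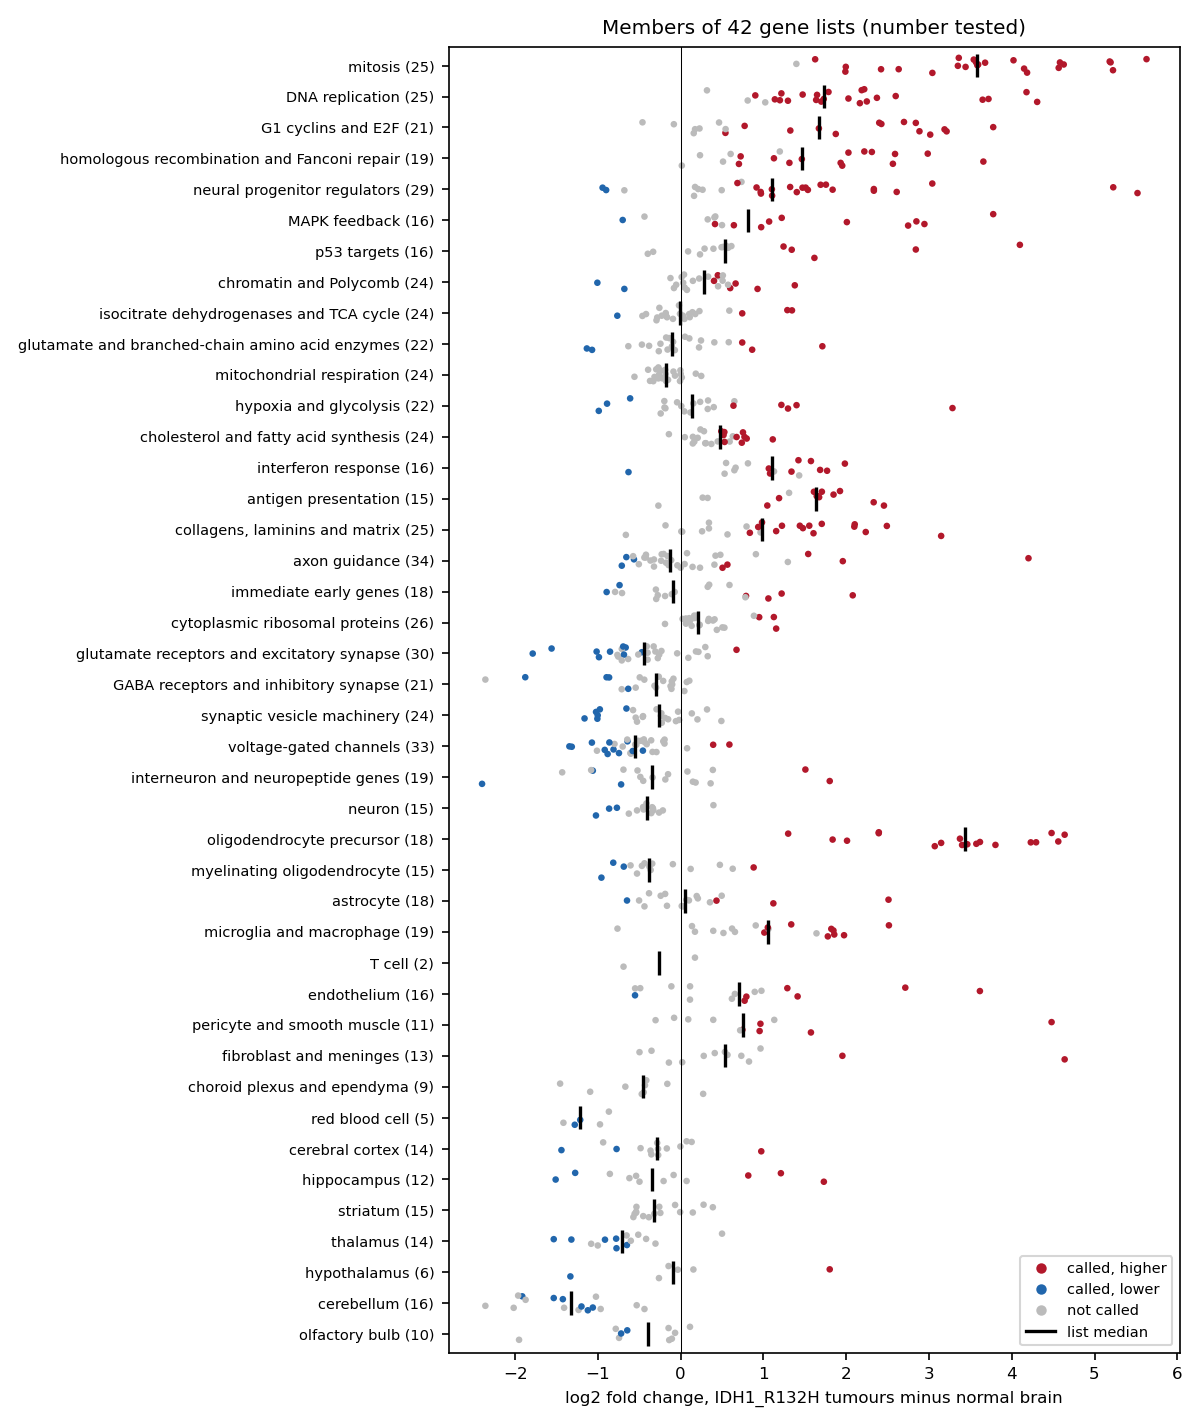
Each point is a tested gene of 1 of 42 lists, at its log2 fold change (IDH1_R132H tumours minus normal brain); red and blue mark called genes, grey the others, and black bars the list medians. Mitosis and oligodendrocyte precursor genes have the highest medians, at 3.58 and 3.43, and cerebellum genes the lowest, at -1.32.

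Genes of neurons and synapses had more lower than higher calls, with small changes that depended on tumour 3. Voltage-gated channel genes fell in 11 of 33 cases and rose in 2, with a median of -0.55. Kcnj9, a subunit of G-protein-gated potassium channels, was at 35.3, 37.3 and 46.0 CPM in the IDH1_R132H tumours, against 99.9, 94.4 and 99.9 CPM in the normal brains (log2 fold change -1.31, SE 0.13, adjusted p = 0.000424, edgeR). Genes of glutamate receptors and the excitatory synapse fell in 9 of 30 cases and rose in 1, with a median of -0.44. Shank3, a scaffold of the postsynaptic density, was at 120, 141 and 117 CPM in the tumours, against 297, 247 and 220 CPM in the normal brains. Of 24 genes of synaptic vesicle machinery, 6 fell and none rose, and of 21 genes of GABA receptors and the inhibitory synapse, 4 fell and none rose. Unc13a, which primes vesicles for release, was at 148, 178 and 168 CPM in the tumours, against 345, 320 and 308 CPM in the normal brains. Gabrd, the delta subunit of extrasynaptic GABA receptors, was among the 15 largest falls, at 7.39, 9.31 and 11.7 CPM in the tumours against 31.4, 30.8 and 41.2 CPM in the normal brains (log2 fold change -1.88, SE 0.21).

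General markers of neurons fell in 3 of 15 cases. Nefl, the light neurofilament chain, was at 120, 130 and 178 CPM in the tumours, against 289, 281 and 298 CPM in the normal brains, and Rbfox3, the NeuN antigen gene, fell by 0.86, a call found in 7 of the 14 alternatives. The neuron score was -0.76, -0.69 and 0.01 in tumours 1, 2 and 3, against -0.07 to 0.08 in the normal brains. Tumour 3, the library with 53.4% ribosomal RNA counts, thus lay within the normal brains on this score and the other tumours below them. In the fit without tumour 3, where 15.3% of all genes tested were lower against 7.9% with it, the lower calls were 13 of 15 for neuron markers, 21 of 24 for synaptic vesicles, 21 of 30 for the excitatory synapse, 14 of 21 for the inhibitory synapse and 27 of 33 for channels. Without any one of the other 5 libraries they were 1 for neuron markers, 3 or 4 for synaptic vesicles, 5 to 8 for the excitatory synapse, 1 to 4 for the inhibitory synapse and 6 to 8 for channels. Over all 14 alternatives the fewest lower calls were 0 for neuron markers, 1 for synaptic vesicles and 2 for channels. They were 3 for the excitatory synapse and 1 for the inhibitory synapse. Nefl and Unc13a lost the call in the fit of all 12 libraries, while Kcnj9, Shank3 and Gabrd kept it.

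Neuropeptides and interneuron genes did not move one way, with 2 of 19 higher and 3 lower, against 12.4% and 7.9% of all genes. The median of the list was -0.34. Npy, neuropeptide Y, was at 37.6, 30.8 and 55.0 CPM in the tumours, against 11.7, 11.5 and 19.7 CPM in the normal brains (log2 fold change 1.51, SE 0.28, adjusted p = 0.00667, edgeR). Gal, the galanin gene, was low in every library, at 3.63, 1.90 and 4.28 CPM in the tumours against 0.857, 1.42 and 0.484 CPM in the normal brains. The 3 that fell were Calb1, Reln and Crh. Calb1 was at 81.8, 49.5 and 94.3 CPM in the tumours, against 148, 162 and 159 CPM in the normal brains (log2 fold change -1.06). Reln and Crh had log2 fold changes of -0.72 and -2.40, and Crh was low in every library. Of 18 immediate early genes, 4 rose and 2 fell, against 12.4% and 7.9% of all genes. Nptx2, an activity-regulated pentraxin that gathers glutamate receptors, was at 75.4, 179 and 38.9 CPM in the tumours, against 19.3, 21.3 and 29.3 CPM in the normal brains, and Bdnf, the neurotrophin gene, rose by 1.22. Arc and Nr4a3, also induced by activity, fell by 0.89 and 0.74. Only 1 immediate early gene was called higher without normal brain 1 or without normal brain 2. In those fits 6.48% and 6.56% of all genes were higher. Nptx2 and Bdnf were called in 9 and 7 of the 14 alternatives. Without tumour 3, 6 neuropeptide and interneuron genes were called lower, in a fit where 15.3% of all genes were lower. Of 34 axon guidance genes, 5 were higher and 3 lower, near the shares over all genes (12.4% and 7.9%). Without tumour 3, 9 were higher and 16 lower, against 16.4% and 15.3% of all genes in that fit.

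Genes of single brain regions differed between the tumours. Cerebellum genes had a median of -1.32, with 6 of 16 lower and none higher. Neurod1, a factor of cerebellar granule cells, was at 24.0, 3.14 and 10.4 CPM in the IDH1_R132H tumours, against 39.9, 51.0 and 48.7 CPM in the normal brains, and it was called in only 6 of the 14 alternatives. Zic1, a factor of the same cells, was at 70.0, 21.7 and 46.0 CPM in the tumours, against 131, 135 and 131 CPM in the normal brains. Gabra6, a receptor subunit of granule cells, was at 29.8, 0.475 and 11.2 CPM in the tumours, against 60.8, 66.6 and 81.6 CPM in the normal brains, and was not called. The cerebellum score was -0.71, -3.09 and -1.33 in tumours 1, 2 and 3, against -0.04 to 0.07 in the normal brains, so tumour 2 held the least of these genes. The lower calls were 11 without tumour 1, 5 without tumour 3, and 1, 2 and 3 without normal brain 1, 2 and 3, and there were none in the fit of all 12 libraries. The olfactory bulb and choroid plexus scores were also lowest in tumour 2, at -1.1 and -1.15, with the other tumours between -0.33 and -0.11 and the normal brains between -0.15 and 0.15. Thalamus genes fell in 6 of 14 cases, but in 2 without normal brain 1 and in 1 without normal brain 2. Of 14 cortex genes, 1 rose and 2 fell, at a median of -0.28. Of 12 hippocampus genes, 3 rose and 2 fell, at a median of -0.35. Over all genes tested, 12.4% were higher and 7.9% lower. No striatum gene of 15 was called. Rprm, a brake on the cell cycle that marks deep cortical layers, rose by 0.97, and C1ql2, a synaptic C1q-like protein, by 1.73. Lamp5 and Rasgrf2 of the cortex list fell by 1.44 and 0.77, and Fibcd1 and Dsp of the hippocampus list by 1.27 and 1.51. Rprm, Lamp5 and Rasgrf2 were each called in 7 of the 14 alternatives, Dsp in 8, Fibcd1 in 11 and C1ql2 in all. The cortex score was -0.83 and -0.54 in tumours 1 and 2 and 0.24 in tumour 3, against -0.04 to 0.06 in the normal brains. In the fit without tumour 3, where 15.3% of all genes were lower, the lower calls were 10 of 14 for cortex and 5 for hippocampus. Without any one of the other 5 libraries they were 0 or 1, and 2.65% to 6.13% of all genes were lower. What part the tissue pieces taken for each library had in these values was not tested.

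The 15 largest falls held genes of several kinds. Il16, a cytokine precursor that is also made by cerebellar neurons, was at 16.5, 3.04 and 6.52 CPM in the tumours, against 40.7, 44.3 and 43.5 CPM in the normal brains (log2 fold change -2.32, SE 0.47, adjusted p = 0.0101, edgeR). Otof, a calcium sensor of vesicle release, was at 4.15, 4.94 and 5.96 CPM in the tumours, against 28.6, 25.5 and 18.96 CPM in the normal brains (log2 fold change -2.29, SE 0.22, adjusted p = 0.000425, edgeR). Grm4, a metabotropic glutamate receptor, was at 51.7, 19.7 and 24.2 CPM in the tumours, against 113, 106 and 111 CPM in the normal brains. For Il16, Grm4 and Neurod1, tumour 1 was the highest tumour and stayed below every normal brain. Hapln2, a link protein of the nodes of Ranvier, fell by 1.77, Crhr1, a receptor for corticotropin-releasing hormone, by 1.72, and Cadps2, a factor of dense-core vesicle release, by 1.61. The others were Exph5, Epop, Ryr1, Slc16a11, Chchd7, Sowahb and Gprc5c, with log2 fold changes between -1.997 and -1.60. Of the 15, 8 were called in each of the 14 alternatives. Il16 and Grm4 lost the call without tumour 3 and in the fit of all 12 libraries.

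The remaining glial and blood lists changed less. Of 15 genes of myelinating oligodendrocytes, 3 fell and 1 rose, against 7.9% and 12.4% of all genes. The median of the list was -0.38. Mag, an adhesion protein of myelin, fell by 0.69, while Mbp, the myelin basic protein gene, had a log2 fold change of -0.47 and was not called. Without tumour 3, 8 of the 15 were lower, in a fit where 15.3% of all genes were. Without tumour 2 or normal brain 1 only 1 was, in fits where 3.21% and 2.65% of all genes were lower. Astrocyte genes had a median of 0.05, with 3 of 18 higher and 1 lower, near the shares over all genes (12.4% and 7.9%). Without tumour 3 there were 5 lower, in a fit where 15.3% of all genes were lower. The fit of all 12 libraries left 1 higher and none lower. Gfap, the filament of reactive astrocytes and of many gliomas, was at 269, 546 and 702 CPM in the IDH1_R132H tumours, against 72.5, 75.5 and 118 CPM in the normal brains (log2 fold change 2.51, SE 0.35, adjusted p = 0.002, edgeR). Cd44, a hyaluronan receptor of mesenchymal glioma cells, rose by 2.34, while the astrocyte transporter genes Slc1a2 and Slc1a3 had log2 fold changes of 0.10 and 0.03 and were not called. The 5 tested genes of red blood cells had -1.21 as their median, and 2 of them fell, but none without tumour 2, normal brain 2 or normal brain 3.

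**Figure D4:**
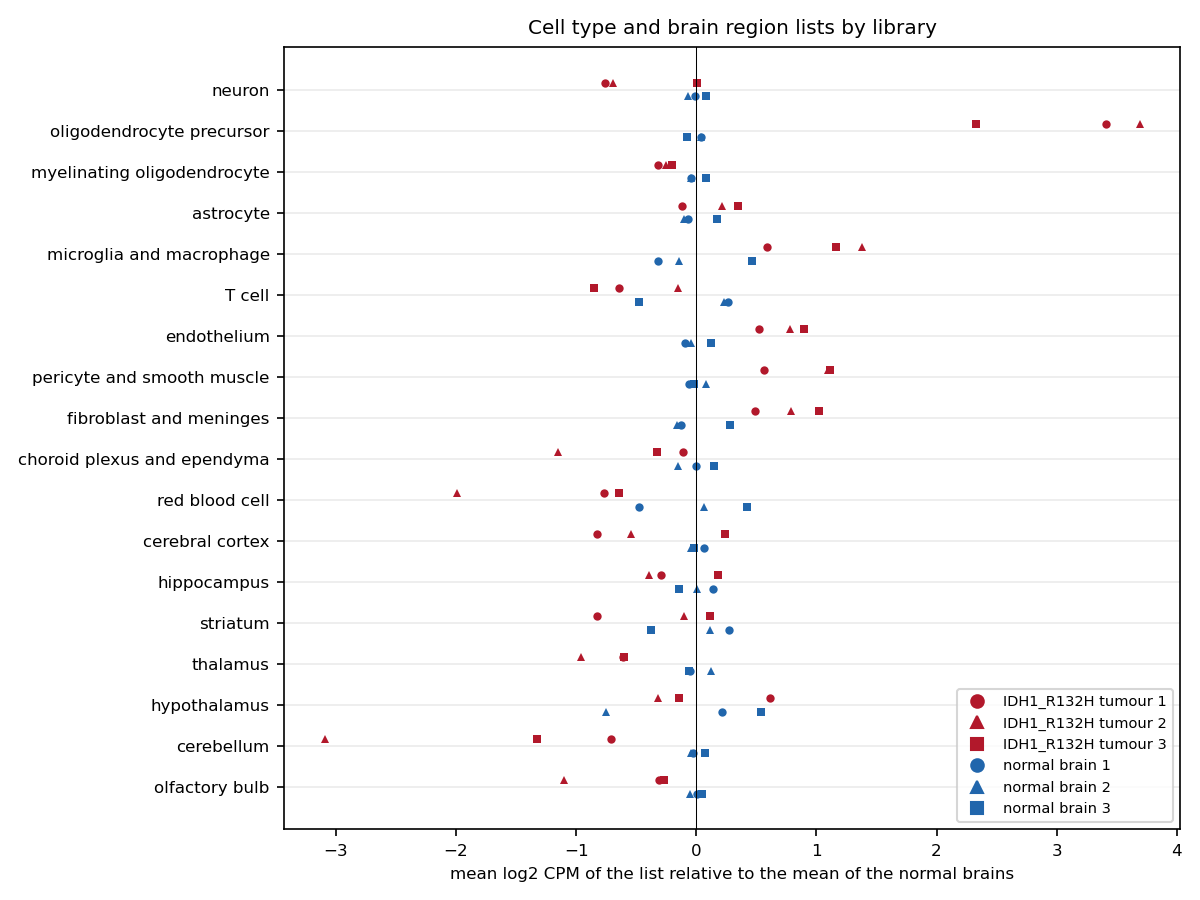
Mean log2 CPM of each cell type or brain region list in each library, less the mean of the normal brains, with IDH1_R132H tumours in red above normal brains in blue. Oligodendrocyte precursor scores are 2.33 to 3.69 in the tumours, the neuron score of tumour 3 is 0.01, and the cerebellum score of tumour 2 is -3.09.

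The IDH1_R132H tumours were last set against the 6 other tumours, to ask whether these differences from normal brain also set them apart from PDGFA and IDH1WT tumours. None of 17812 genes was called (0%) in the edgeR contrast with the equally weighted mean of both groups, where the smallest adjusted p was 0.233 and 1147 genes had an unadjusted p under 0.05. DESeq2 called 24 genes, 18 higher and 6 lower. The tumour groups share their normal brains, so their own differences from normal brain are given side by side only. The median log2 fold change of the precursor list against normal brain was 3.40 in IDH1_R132H tumours, 2.06 in PDGFA tumours and 3.01 in IDH1WT tumours. That of the mitosis list was 3.56 in IDH1_R132H tumours, 3.94 in PDGFA tumours and 4 in IDH1WT tumours. The antigen presentation list was at 1.62 in IDH1_R132H tumours, 0.56 in PDGFA tumours and 1.42 in IDH1WT tumours. Cerebellum genes were at -1.34 in IDH1_R132H tumours, -0.67 in PDGFA tumours and -0.56 in IDH1WT tumours.

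At the scaling of all 12 libraries, Npy was at 39.5, 33.0 and 58.2 CPM in the IDH1_R132H tumours, against 20.8, 6.47 and 6.16 CPM in the PDGFA tumours and 8.81, 4.15 and 16.0 CPM in the IDH1WT tumours. Every IDH1_R132H tumour was above every other tumour, but the difference of 2.07 on the log2 scale (SE 0.42) had an adjusted p of 0.474 with edgeR, against 0.00491 with DESeq2. Gal gave a difference of 2.15, with an adjusted p of 0.397 with edgeR and 0.00741 with DESeq2. Otof, one of the largest falls, was at 4.36, 5.29 and 6.32 CPM in the IDH1_R132H tumours, against 21.1, 20 and 12 CPM in the PDGFA tumours and 22.3, 13.7 and 10.9 CPM in the IDH1WT tumours (difference -1.65, SE 0.29, adjusted p = 0.332 with edgeR and 0.000583 with DESeq2). These 3 genes were chosen after their values were seen. Idh1 was at 53.7, 52.2 and 70.7 CPM in the IDH1_R132H tumours, against 22.2, 36.2 and 46.7 CPM in the PDGFA tumours and 47.6, 56.3 and 39.1 CPM in the IDH1WT tumours, and did not pass the test (difference 0.52, adjusted p = 0.743, edgeR). Pdgfra spanned 643 to 1560 CPM in the IDH1_R132H tumours. It was at 81.2, 247 and 814 CPM in the PDGFA tumours and 510, 1540 and 626 CPM in the IDH1WT tumours (difference 1.03, SE 0.54, adjusted p = 0.778, edgeR).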

How the data were processed

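Total RNA from 3 IDH1_R132H tumours and 3 normal brains was sequenced as part of a series of 12 libraries in 4 groups. Groups were taken from the labels, and replicate numbers only name a library. The main file deposited by the authors gives the raw count of reads for each gene, made with STAR 2.5.2b, Subread and featureCounts 1.5.1 on GRCm38, per the submitters' processing notes. A deposited table of log2 values, rlog by its own name, was used only as an alternative; the notes also name DESeq2 1.16.1. Not given in the sources used here are the annotation, how strand was handled and what was done with reads that match several places, so counts of overlapping genes and of near-identical copies such as H2-K1 and H2-D1 are uncertain.

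Counts were analysed in R 4.3.3 with edgeR 4.0.16: filterByExpr (minimum count 10, minimum total 15), TMM factors, and the quasi-likelihood test with robust dispersion on the 6 libraries (4 residual degrees of freedom), with a call at a Benjamini-Hochberg adjusted p under 0.05 over all genes tested. The contrast with the other tumours was fitted on all 12 libraries. All p-values are from edgeR unless DESeq2 (1.42.0) or limma (3.58.1) is named. The median SE of a log2 fold change was 0.213, which bounds what could be called. Effective depths ran from 5368373 to 10526646 counts in the tumours and from 9340284 to 12391647 in the normal brains. GENCODE M21 named 49412 of the 49671 genes; promoters are from RefSeq on GRCm38.p6. The procedure was tested on simulated data.

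The 42 gene lists (804 genes, 751 tested) and the groups compared were chosen with earlier results of these data known. Lists are described by counts and medians, with no set test. Genes named are the 15 with the largest change each way (mean log2 CPM of at least 3, groups not overlapping, approved-style symbol), up to 4 members of each list by smallest p, and 14 further genes, called or not; others were chosen after their values were seen, as were the promoter motifs. Some items are not reported here. The alternatives tried were other scalings, filters, tests and fits, and leaving out each library.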

Additional observations from a re-analysis of the deposited data

How the results depend on the processing

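Under the alternatives, the count of 3319 genes called between IDH1_R132H tumours and normal brain was 7042 with limma voom and sample weights, which gave tumour 3 the lowest weight (0.271), 1278 when the spread was taken from all 12 libraries, and 1687 with normal brains 1 and 2 summed into 1 sample. Leaving out 1 library gave 1547 to 5428 calls. RLE size factors, no low count filter, DESeq2, limma on the deposited log2 values and leaving out ribosomal and mitochondrial genes gave 3325 to 3930. The share of calls that were higher was 61% in the main analysis, 52.4% with voom weights and 51.7% without tumour 3. Against the other tumours, where edgeR called 0 genes, DESeq2 called 24 and edgeR without the filter on low counts 278; leaving out 1 library gave 0 in each of the 4 fits run. The cause of these differences was not tested. Of the repeated values of named genes, 2327 kept their direction and side of the threshold, 259 lost the call, 40 gained it and 6 changed sign. The 6 were of genes that were not called: the log2 fold change of Cd4 (0.17) was -0.54 with voom weights and -0.63 to 0.56 when 1 library was left out, and leaving out 1 library gave -0.55 to 0.09 for Otp (-0.26) and -0.89 to 0.33 for Trh (-0.15). No paired analysis was possible because the labels give no replicate numbers or pairing. With 3 libraries a group and tumour 3 at 5368373 effective counts, small changes and genes of few counts, such as those of T cells, could not be resolved.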
